A study of Mus musculus with 6 samples.

Results

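Chemokine ligand genes were compared between 3 chronic stroke infarcts and 3 pieces of contralateral cortex. They were taken as the protein-coding mouse genes whose symbols begin with Ccl, Cxcl, Xcl or Cx3cl and a number, which gave 44 of 46078 gene identifiers. Of these, 37 lie on named chromosomes and 7 are copies of *Ccl19*, *Ccl21a*, *Ccl21b*, *Ccl21c* and *Ccl27* genes on unplaced scaffolds. All 6 libraries came from wild-type C57BL/6J mice aged 3 months, at 7 weeks after stroke. Per the study's methods the mice were male, stroke was induced by permanent electrocoagulation of the distal middle cerebral artery followed by hypoxia, infarcts were identified by eye and dissected, and animals were perfused with saline before dissection. The labels name no drug or vehicle for these 6 libraries and do not say which infarct and cortex came from the same mouse. No sham-operated or uninjured brain was analysed here, so the reference throughout is cortex of a brain that also holds an infarct.

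Chemokines are small secreted proteins that bind G protein-coupled receptors on leukocytes and direct their migration. Inflammatory chemokines are switched on by cytokines and by products of damage or infection and draw monocytes, neutrophils and effector T cells out of the blood, whereas homeostatic chemokines position lymphocytes and stem cells in lymphoid organs and other tissues. In healthy brain the fractalkine gene *Cx3cl1*, made by neurons, and *Cxcl12*, made by vessels and meninges among other cells, are the ligands best known to be expressed at rest.

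Each library held between 11943570 and 19933962 counts on genes, and the chemokine ligand genes took between 8795 and 28281 of them. Values are given below as counts, or as CPM (counts scaled to libraries of equal size) with the trimmed mean of M values (TMM) as the scaling. Macrophage markers summed to between 5004 and 8365 CPM in the infarcts and to between 29.6 and 39.8 CPM in the cortices. Neuron markers summed to between 428 and 1136 CPM in the infarcts and to between 6687 and 7756 CPM in the cortices. Fibroblast and leptomeningeal markers summed to between 2813 and 3649 CPM against between 117 and 140 CPM. In bulk tissue, a change in the number of cells of a type and a change in RNA per cell cannot be told apart, and this holds for every difference below.

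Most of the ligand genes that could be tested were higher in infarcts. Of 24 tested, 19 were higher, 4 were lower (*Cx3cl1*, *Cxcl14*, *Ccl27a* and *Ccl28*) and 1, *Ccl25*, was not called. A gene was called where edgeR's quasi-likelihood *p*, adjusted by Benjamini-Hochberg over all 15554 tested genes, was below 0.05 and the log2 fold change exceeded 1 in size. Among all genes tested, 25.7% were called higher in infarcts, 20.9% lower and 46.6% in either direction, and among protein-coding genes the shares were 26.6% and 19.7%. The median log2 fold change of the 24 ligand genes was 6.09, or 5.63 with the 4 genes that had no contralateral count placed at their lower bound, and that of all genes was 0.03. Neither the 19 nor the median stands as support for a family-wide shift, because 16 of the 24 genes reached the level needed for testing in infarcts alone and so had to differ. Only 6 genes reached it in both regions, and of these *Ccl6*, *Cxcl12* and *Cxcl16* were higher while *Cx3cl1*, *Cxcl14* and *Ccl28* were lower. *Ccl27a* reached it in contralateral cortex alone and so had to differ as well, and *Ccl25* reached it only with libraries of both regions together. The 3 values of each region were free of overlap for all 23 called genes, a separation that 37.6% of all genes showed upward and 34.7% downward.

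**Figure D1:**
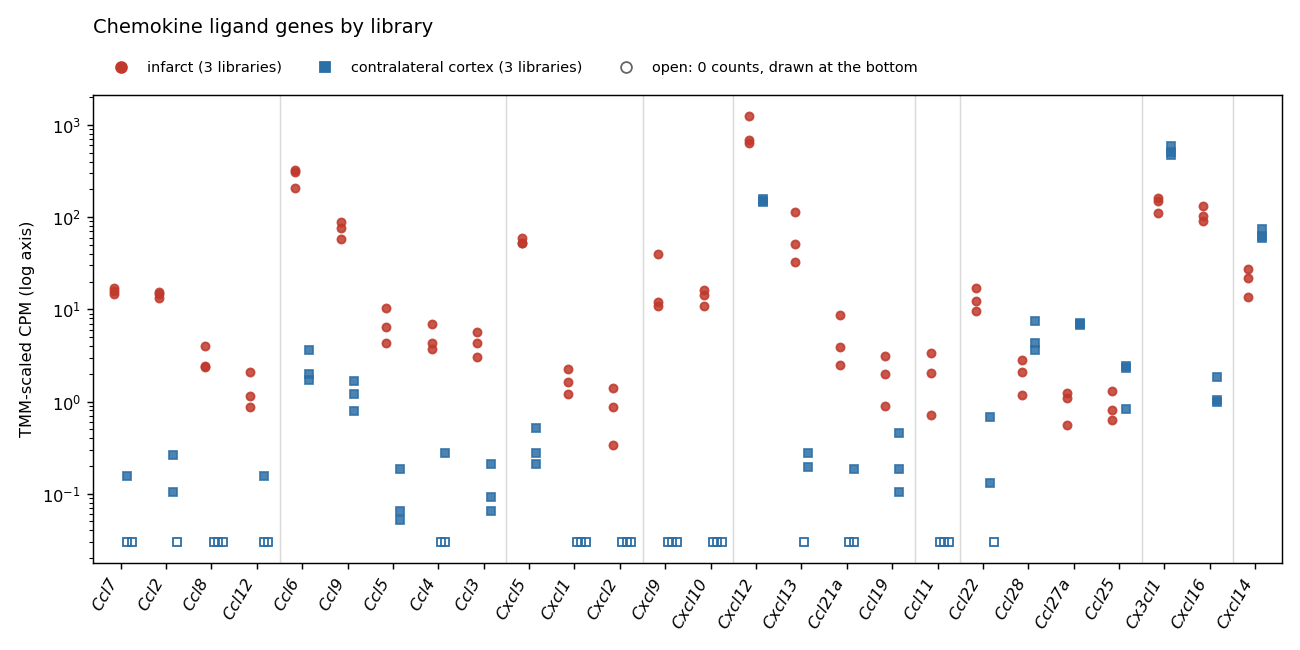
TMM-scaled CPM on a log axis for the 24 tested ligand genes and for *Ccl11* and *Cxcl2*, which were not tested; each point is 1 library, circles are infarcts and squares contralateral cortices, and open symbols at the bottom are libraries with 0 counts. Genes are grouped by receptor between the grey lines, and the infarct points lie above the cortex points for all genes but *Ccl28*, *Ccl27a*, *Ccl25*, *Cx3cl1* and *Cxcl14*.

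More of the ligand identifiers were detected in infarcts than in contralateral cortex. Detection over all genes was not counted, so nothing is read from the difference. With more than 3 counts asked for in every library of a region, 26 of the 44 identifiers were detected in infarcts and 9 in contralateral cortex, and all 9 were among the 26. The same numbers were obtained with all libraries thinned to the smallest total. No count in any library was found for 13 identifiers, namely *Ccl20*, *Ccl26*, *Cxcl15*, *Cxcl17*, *Ccl21b* and *Ccl27b* on chromosomes and all 7 scaffold copies. For *Ccl20*, *Ccl26*, *Cxcl15* and *Cxcl17*, a count of 0 allows a level of up to between 0.157 and 0.277 CPM, the value of 3 counts in a library (counting error only). No such limit holds for *Ccl21b* and *Ccl27b*, since all 75-base windows of *Ccl21b* and 98.0% of those of *Ccl27b* also occur in other genes and reads that align to several places were not counted, and none is given for the scaffold copies.

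The CCR2 ligands *Ccl2*, *Ccl7*, *Ccl8* and *Ccl12*, which recruit inflammatory monocytes, were all higher in infarcts. All of them reached the level needed for testing in infarcts alone, so nothing is read from their shared direction. They lie side by side in chr11:82035571-82305690 (GRCm38), with *Ccl11* and *Ccl1*. *Ccl2*, the main monocyte attractant of this group, had 182, 211 and 197 counts in the infarcts and 2, 4 and 0 in the cortices. Its log2 fold change was 6.69 ± 0.44 (SE, edgeR adjusted *p* = 1.16e-06), and without contralateral replicate 2 it was 7.59. *Ccl7* had 185, 235 and 231 counts against 3, 0 and 0. Both genes were nearly level between infarcts, with coefficients of variation of 7.07% for *Ccl2* and 7.96% for *Ccl7*, which with *Cxcl5* at 7.36% were the smallest among the 19 higher genes. The pooled ratio of *Ccl7* was 241, with a 95% exact counting interval of 82.1 to 1172, and its fitted log2 fold change was 7.75 ± 0.49 (edgeR adjusted *p* = 1.01e-06). All 3 of its cortex counts came from contralateral replicate 1, and without that library the fitted value was 10.73.

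*Ccl8* had 50, 33 and 35 counts in infarcts and none in any cortex, so it was at least 14.0-fold higher against a floor of 3 counts per library (edgeR adjusted *p* = 8.38e-05). *Ccl12*, a rodent relative of *Ccl2*, was the lowest of this group. It had 26, 12 and 17 counts against 3, 0 and 0, a pooled ratio of 20.4 with an interval of 6.61 to 102 (edgeR adjusted *p* = 1.39e-03). Its fitted log2 fold change was 4.22, and 7.20 without contralateral replicate 1, which held all its cortex counts. *Ccr2*, the receptor shared by these ligands and also one of the monocyte markers, had 2332, 2352 and 1591 counts against 23, 9 and 17 (log2 fold change 7.14 ± 0.36, edgeR adjusted *p* = 5.48e-07).

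The ligands of CCR1 and related receptors form a second group on chromosome 11, at chr11:83525778-83664683, and all 5 were higher in infarcts. All but *Ccl6* reached the level needed for testing in infarcts alone, so nothing is read from their shared direction. *Ccl6* and *Ccl9*, which are rodent chemokines made by myeloid cells, held most of the counts. *Ccl6* had 3851, 4466 and 3000 counts against 38, 26 and 39, a log2 fold change of 6.89 ± 0.34 (edgeR adjusted *p* = 4.20e-07). Levels of different genes were set side by side as CPM per kilobase of exon, with the exons of all annotated transcripts merged. On this scale *Ccl6* was the highest ligand gene of the infarct, with a mean of 156, and in contralateral cortex it averaged 1.35. The merged length was 1795 bases for *Ccl6* and 8176 for *Cxcl12*. Which transcripts were present was not examined, so the order between genes holds for merged lengths only. *Ccl9* had 948, 1195 and 844 counts against 23, 12 and 18 (log2 fold change 5.95 ± 0.29, edgeR adjusted *p* = 2.93e-07).

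*Ccl3* and *Ccl4*, the macrophage inflammatory proteins, and *Ccl5*, a product of T cells and macrophages, were present at a lower level. *Ccl3* had 71, 41 and 64 counts against 4, 1 and 1 (log2 fold change 4.96 ± 0.52, edgeR adjusted *p* = 2.44e-05; 5.65 without contralateral replicate 1). *Ccl4* had 87, 59 and 54 counts against 0, 0 and 3, a pooled ratio of 74.0 with an interval of 25.0 to 362 (edgeR adjusted *p* = 1.00e-04). Because contralateral replicate 3 held the only cortex counts of *Ccl4*, its fitted log2 fold change of 6.02 became 9.23 without that library and 5.28 without contralateral replicate 1. *Ccl5* had 131, 87 and 63 counts against 1, 1 and 2 (log2 fold change 6.16 ± 0.58, edgeR adjusted *p* = 1.22e-05). The receptor gene *Ccr1* had 238, 240 and 213 counts against 10, 18 and 4 (log2 fold change 4.58 ± 0.35, edgeR adjusted *p* = 3.34e-06).

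The eotaxins, which attract eosinophils through CCR3, had too few counts for testing. *Ccl11* was at 9, 28 and 49 counts in the infarcts and at 0 in every cortex, so it was at least 9.73-fold higher by the floor, or at least 6.61-fold without infarct replicate 3. After scaling, the highest infarct held 4.67 times the CPM of the lowest. *Ccl24* had 0, 2 and 2 counts in infarcts and none in cortex, and *Ccl26* had none anywhere. *Ccr3* itself had 12, 45 and 41 counts against 0, 3 and 3 (log2 fold change 4.03 ± 0.80, edgeR adjusted *p* = 1.54e-03).

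The CXCR2 ligands, which recruit neutrophils, were led by *Cxcl5*. They lie in chr5:90759360-90905938. *Cxcl5* had 666, 818 and 776 counts in infarcts and 4, 8 and 3 in cortex, a log2 fold change of 7.34 ± 0.28 with the smallest adjusted *p* of the family (edgeR adjusted *p* = 1.64e-07). The 3 infarcts were close to each other, at 53.0, 60.1 and 53.0 CPM. *Cxcl1* had 15, 22 and 33 counts and none in cortex, at least 8.05-fold higher (edgeR adjusted *p* = 2.45e-04). *Cxcl2* had 11, 19 and 5 counts against 0, 0 and 0, too few to be tested and at least 4.15-fold higher by the floor, or at least 2.90-fold without infarct replicate 2. *Cxcl3* had 1 count in all 6 libraries together and *Cxcl15* had none.

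Beside these ligands, the receptor genes *Cxcr1* and *Cxcr2* were called higher, and *Cxcr2* had 69, 43 and 39 counts against 0, 0 and 1 (pooled ratio 168 with an interval of 29.6 to 6667, edgeR adjusted *p* = 3.95e-05). Of the neutrophil markers, *S100a8* was at 9.56, 8.66 and 6.21 CPM in infarcts. *Ly6g*, the defining one, was at 0 in 2 of 3 infarcts and in every cortex, and all 4 markers together summed to between 7.92 and 12.1 CPM in infarcts against between 0.104 and 0.554 CPM in cortex.

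Promoters in the RefSeq table for GRCm38.p6, which spans 250 bases before to 50 bases after each start site, were matched for 27 of the ligand genes. *Ccl2*, *Ccl4*, *Ccl5*, *Ccl7*, *Cxcl5* and *Cxcl16*, all called higher, had no entry. A sequence of the NF-kappaB type, the factor through which inflammatory cytokines switch on many chemokines, was present on either strand in 8 of these 27 (29.6%) and in 9.55% of 27025 genes. It was present in 3 of the 13 matched genes called higher in infarcts and in 1 of the 4 called lower, and the rest were not tested. *Cxcl1*, *Cxcl2* and *Cxcl3* share 1 such sequence, and the stretch from 100 to 51 bases before each start site is shown with it in capitals. A match is a description of letters and not a binding site.
Cxcl1, chr5:90891145-90891194, + strand: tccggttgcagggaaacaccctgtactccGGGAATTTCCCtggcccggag
Cxcl2, chr5:90903799-90903848, + strand: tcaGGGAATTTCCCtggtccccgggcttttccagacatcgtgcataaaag
Cxcl3, chr5:90786001-90786050, + strand: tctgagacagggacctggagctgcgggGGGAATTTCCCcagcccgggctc
All 3 genes thus carry the same capitals, while their infarct counts ranged from 70 in all for *Cxcl1* and 35 for *Cxcl2* to 1 for *Cxcl3*.

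The CXCR3 ligands *Cxcl9* and *Cxcl10*, induced by interferon and attractants of effector T cells, had no count in any contralateral library and at least 147 in every infarct. They neighbour each other at chr5:92321347-92348889. *Cxcl10* had 202, 149 and 211 counts in infarcts and was at least 65.9-fold higher (edgeR adjusted *p* = 2.54e-06). *Cxcl9* had 499, 147 and 177 counts and was at least 99.6-fold higher (edgeR adjusted *p* = 1.73e-03), or at least 54.6-fold without infarct replicate 1. Infarcts were more alike in *Cxcl10*, with a coefficient of variation of 19.0%, than in *Cxcl9*, with 78.4%. With no filter on low counts, *Cxcl9* missed the threshold (edgeR adjusted *p* = 0.0556). *Cxcl11*, the remaining CXCR3 ligand, is annotated as a polymorphic pseudogene here and was not counted among the members; it had 1, 3 and 0 counts against 2, 1 and 0. *Cxcr3*, their receptor, had 123, 50 and 25 counts against 3, 2 and 1 (log2 fold change 5.17 ± 0.81, edgeR adjusted *p* = 4.45e-04).

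The promoters of this pair differ in the motifs searched. The core of the interferon-stimulated response element (ISRE, GAAA and GAAA parted by any 2 bases, either strand) was present in 3 of 27 ligand promoters (11.1%), those of *Cxcl10*, *Ccl19* and *Cxcl14*, and in 3.99% of all genes. TATAAA was present in 10 of 27 (37.0%) and in 15.7% of all genes. Of the 13 matched genes called higher, 2 had the ISRE core and 5 had TATAAA, and of the 4 called lower 1 had each. The 250 bases before each start site are given with matches in capitals, which in *Cxcl10* are the ISRE core followed by an NF-kappaB match and by a pair of overlapping NF-kappaB matches, and in *Cxcl9* a TATAAA alone.
Cxcl10, chr5:92348890-92349139, - strand: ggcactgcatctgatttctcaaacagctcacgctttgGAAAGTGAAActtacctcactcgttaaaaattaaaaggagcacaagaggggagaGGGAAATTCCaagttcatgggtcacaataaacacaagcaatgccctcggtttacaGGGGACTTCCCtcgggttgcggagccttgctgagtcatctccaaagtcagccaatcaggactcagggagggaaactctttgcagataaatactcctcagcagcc
Cxcl9, chr5:92328080-92328329, - strand: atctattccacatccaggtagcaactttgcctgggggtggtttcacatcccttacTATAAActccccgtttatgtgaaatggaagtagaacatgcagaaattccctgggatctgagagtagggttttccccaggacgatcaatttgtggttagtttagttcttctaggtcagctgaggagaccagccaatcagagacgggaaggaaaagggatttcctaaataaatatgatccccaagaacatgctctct
Of genes that act upstream, *Ifng* had only 2, 6 and 0 counts in infarcts and none in cortex, while *Irf1*, an interferon-induced transcription factor, had 746, 480 and 440 counts against 53, 45 and 45 (log2 fold change 3.68 ± 0.31, edgeR adjusted *p* = 6.79e-06).

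**Figure D2:**
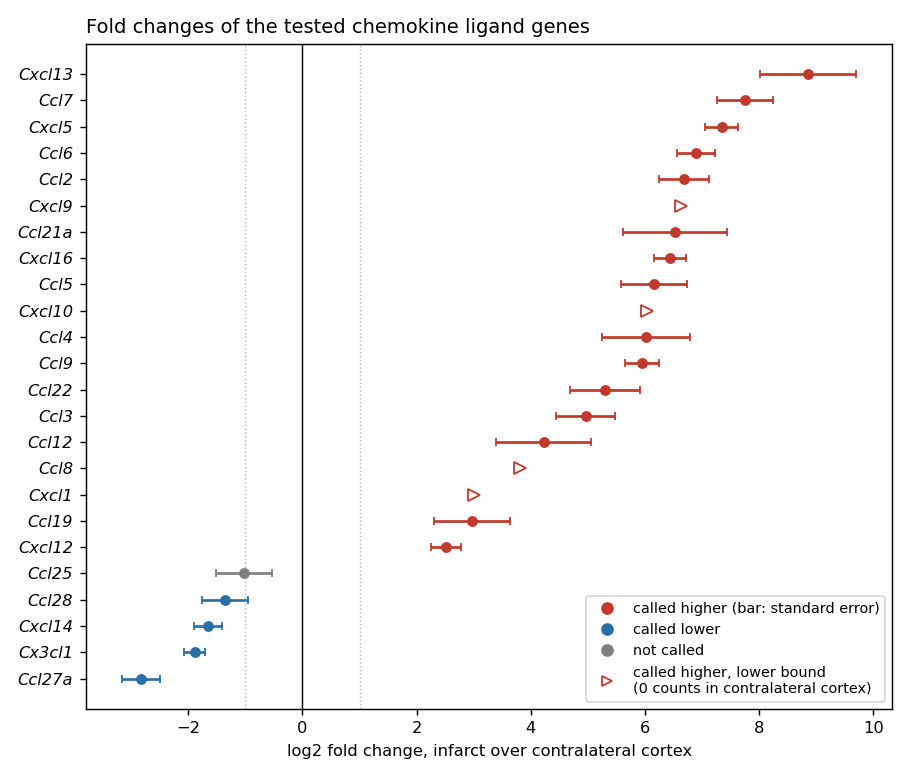
Log2 fold change of infarct over contralateral cortex for the 24 tested ligand genes. Points are fitted values with standard errors, open triangles are lower bounds for the 4 genes with no contralateral count, dotted lines mark a log2 fold change of 1 in either direction, and values run from -2.83 for *Ccl27a* to 8.86 for *Cxcl13*.

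Of the chemokines that organise lymphoid tissue, only *Cxcl12* reached the level needed for testing in both regions, and it was higher in infarcts. *Cxcl13*, *Ccl19* and *Ccl21a* reached that level in infarcts alone, so nothing is read from their shared direction. *Cxcl12*, which binds CXCR4 and holds stem cells and lymphocytes in place, was the ligand gene with most counts in infarcts. It was at 1257, 694 and 635 CPM in infarcts and at 158, 151 and 145 CPM in cortex, a log2 fold change of 2.51 ± 0.26 (edgeR adjusted *p* = 2.84e-05). Infarct replicate 1 stood above the other two, and leaving out each library in turn gave log2 fold changes between 2.15 and 2.70. *Cxcr4* had 696, 699 and 584 counts against 6, 7 and 4 (log2 fold change 6.99 ± 0.27, edgeR adjusted *p* = 1.64e-07), and *Ackr3*, a scavenging receptor of CXCL12, had a log2 fold change of 1.71 ± 0.20 (edgeR adjusted *p* = 5.58e-05).

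*Cxcl13*, which draws B cells into follicles through CXCR5, had the largest fitted fold change among genes with contralateral counts. It had 1444, 704 and 481 counts in infarcts and 0, 3 and 3 in cortex (log2 fold change 8.86 ± 0.83, edgeR adjusted *p* = 7.58e-05). The fitted value was 8.23 without infarct replicate 1 and 8.11 without contralateral replicate 1. Per kilobase it came next among the ligands of the infarct after *Ccl6* and *Cxcl12*, with a mean of 57.8 CPM per kilobase. Infarct replicate 1 carried this place, above the 45.0 and 28.5 CPM per kilobase of the other two, and without it the mean was 36.7, close to the 34.6 of *Cx3cl1*. *Cxcr5* had 73, 51 and 49 counts against 8, 4 and 2 (log2 fold change 3.79 ± 0.44, edgeR adjusted *p* = 5.12e-05).

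*Ccl19* and *Ccl21a*, the CCR7 ligands that guide dendritic cells and naive T cells, were lower in count. *Ccl19* had 39, 27 and 13 counts against 2, 7 and 2 (log2 fold change 2.97 ± 0.67, edgeR adjusted *p* = 3.10e-03), or a fold change of 3.77 on the log2 scale without contralateral replicate 2. *Ccl21a* had 108, 34 and 57 counts against 0, 0 and 2, a pooled ratio of 110.5 with an interval of 30.2 to 919 (edgeR adjusted *p* = 1.97e-04). Its fitted log2 fold change of 6.53 was 9.23 without contralateral replicate 3, 5.83 without contralateral replicate 1 and 5.92 without infarct replicate 1. *Ccr7* had 77, 47 and 41 counts against 0, 0 and 1 (pooled ratio 183 with an interval of 32.4 to 7281, edgeR adjusted *p* = 3.60e-05).

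Counts of both CCR7 ligands are uncertain, because 61.3% of the 75-base windows of *Ccl21a* and 45.3% of those of *Ccl19* also occur in other annotated genes, and reads that align to several places were not counted. The coding sequences of *Ccl21a* and *Ccl21b* are both 402 bases long and differ at 2, T84A and C194T (the *Ccl21a* base first, the position counted from 1 at the first base of the start codon, then the *Ccl21b* base). Coding bases 54 to 113 are shown from GENCODE M21, with the differing base in capitals.
Ccl21a: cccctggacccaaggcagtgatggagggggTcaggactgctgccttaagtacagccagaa
Ccl21b: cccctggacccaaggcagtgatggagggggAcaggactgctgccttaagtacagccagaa
A 75-base read of the coding sequence that covers neither of the 2 differing bases fits both genes equally. Covering them does not single out *Ccl21b*, since all of its 75-base windows also occur in other annotated genes.

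The genes called higher differed in how evenly the 3 infarcts shared the difference. Infarct replicate 1 had the highest CPM for 13 of the 19 genes, infarct replicate 2 for 5 (*Ccl2*, *Ccl6*, *Ccl7*, *Ccl9* and *Cxcl5*) and infarct replicate 3 for 1 (*Cxcl1*). The ratio of the highest to the lowest infarct ran from 1.13 for *Cxcl5* to 3.68 for *Cxcl9*, and was 3.50 for both *Cxcl13* and *Ccl19*, 3.45 for *Ccl21a* and 2.43 for *Ccl5*. Markers of T cells summed to 78.0, 31.2 and 18.9 CPM in infarct replicates 1 to 3, and were at 0.522, 0.195 and 0.0923 CPM in the cortices, where *Cd3d* and *Cd8a* were at 0. Markers of B and plasma cells summed to 2255, 831 and 249 CPM in the infarcts and to between 1.25 and 3.88 CPM in the cortices. Most of that sum was *Jchain*, and without it the other 4 markers summed to 252, 108 and 86.8 CPM in the infarcts. Macrophage markers spread less, at 8365, 7224 and 5004 CPM, of which *Lyz2* made up all but 512, 394 and 339 CPM. Infarct replicate 1 was also highest in the summed markers of monocytes, neutrophils, dendritic cells, endothelium and fibroblasts. Infarct replicate 3 was highest in those of neurons, astrocytes, oligodendrocytes, microglia, choroid plexus and lymphatic endothelium. The part of any of these cell types in the ligand levels was not tested. All 19 genes stayed called higher without infarct replicate 1.

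**Figure D3:**
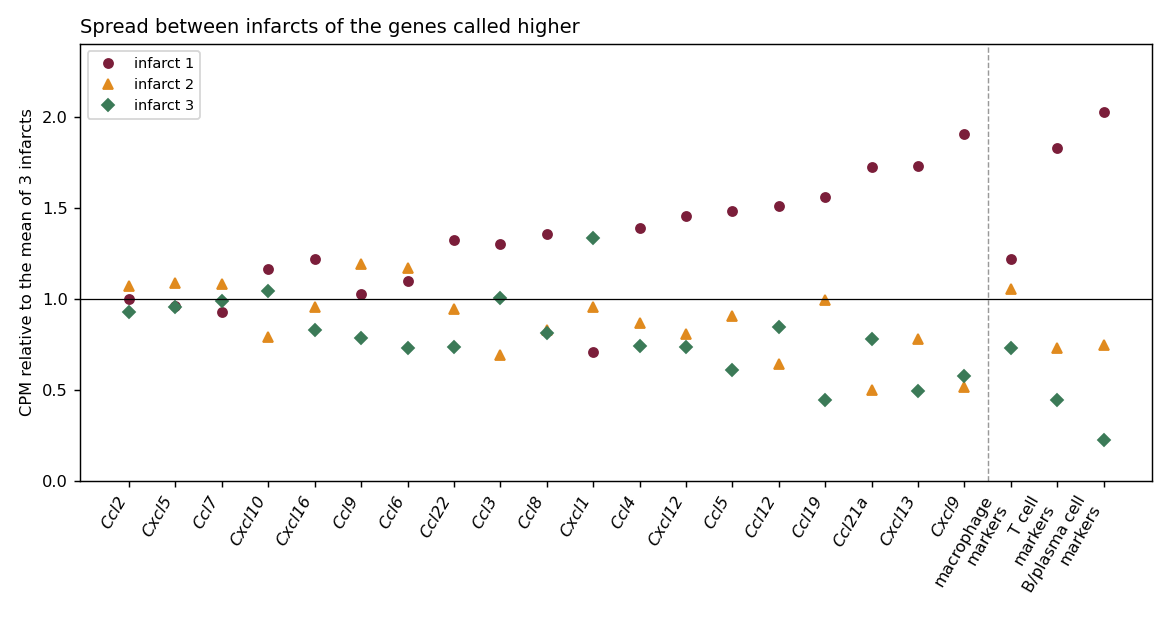
CPM of each infarct library relative to the mean of the 3 infarcts, for the 19 ligand genes called higher, ordered by coefficient of variation, and to the right of the dashed line for the summed markers of 3 cell types. Infarct replicate 1 lies highest for 13 of the 19 genes, among them *Cxcl9*, *Cxcl13*, *Ccl21a* and *Ccl19*, and for all 3 sets of markers. The 3 infarcts nearly coincide for *Ccl2*, *Cxcl5* and *Ccl7*.

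Ligands of CCR4 and of the receptors used at skin and mucosa went in both directions. *Ccl22*, a CCR4 ligand made by dendritic cells and macrophages, had 215, 166 and 139 counts against 13, 2 and 0 (log2 fold change 5.31 ± 0.61, edgeR adjusted *p* = 8.97e-05). Contralateral replicate 1 held 13 of its 15 cortex counts, and the value without it was 7.24. *Ccl17*, the other CCR4 ligand, is a near neighbour of *Ccl22* and of *Cx3cl1* within chr8:94745590-94812036, and had 1, 3 and 3 counts in infarcts against 3, 9 and 3, too few to be tested. Its pooled ratio was 0.518 with an interval of 0.179 to 1.35. The 3 genes of that interval were thus higher, lower and untested. *Ccr4* had 30, 16 and 6 counts against none and was not tested.

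*Ccl27a*, a skin chemokine that binds CCR10, had the lowest log2 fold change of the tested ligand genes. It was the only ligand gene to reach the level needed for testing in contralateral cortex alone, and so had to be lower. It had 7, 17 and 16 counts in infarcts and 136, 107 and 74 in cortex (log2 fold change -2.83 ± 0.33, edgeR adjusted *p* = 4.52e-05). The 3 cortices were nearly level, at 7.10, 6.97 and 6.83 CPM, and 33.3% of the 75-base windows of *Ccl27a* occur in other genes. *Ccl28*, a mucosal ligand of CCR10 and CCR3, had 26, 16 and 41 counts against 143, 67 and 39 (log2 fold change -1.36 ± 0.40, edgeR adjusted *p* = 0.0132). Its regions were apart only after scaling for depth, at 1.17 to 2.80 CPM against 3.60 to 7.47 CPM, and the call was lost without contralateral replicate 1 (-0.99, edgeR adjusted *p* = 0.0774). *Ccl25*, the thymic and gut ligand of CCR9, had 8, 11 and 19 counts against 44, 37 and 9 and overlapped between regions (log2 fold change -1.03 ± 0.49, edgeR adjusted *p* = 0.0919). Without contralateral replicate 3 it was -1.35 (edgeR adjusted *p* = 0.0323).

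*Ccl1*, a CCR8 ligand, had 3 counts, all in contralateral replicate 1, and *Ccl20*, the CCR6 ligand, had none. *Xcl1*, made by T and NK cells, had 6, 1 and 0 counts in infarcts and none in cortex, while its receptor gene *Xcr1*, which marks a class of dendritic cells, had 100, 99 and 45 counts against 0, 1 and 0 (pooled ratio 271 with an interval of 48.2 to 10746, edgeR adjusted *p* = 1.90e-05).

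*Cx3cl1* and *Cxcl16* are the 2 chemokines made as membrane-bound proteins, and they moved in opposite directions. *Cxcl16*, which is also a scavenger receptor for oxidised lipoprotein, had 1656, 1406 and 1318 counts in infarcts and 20, 15 and 20 in cortex (log2 fold change 6.44 ± 0.28, edgeR adjusted *p* = 1.81e-07). Of its exon bases 18.3% lie opposite exons of *Zmynd15*, whose reads could not be told apart if the counting ignored strand. *Cxcr6*, its receptor, had 246, 207 and 114 counts against 3, 2 and 2 (log2 fold change 6.44 ± 0.49, edgeR adjusted *p* = 3.20e-06).

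*Cx3cl1* was at 151, 111 and 161 CPM in infarcts and at 473, 509 and 586 CPM in cortex, a log2 fold change of -1.89 ± 0.19 (edgeR adjusted *p* = 1.60e-05). *Cx3cr1*, its receptor on microglia and macrophages, was higher in infarcts, with 3118, 3154 and 3649 counts against 1560, 1023 and 1024 (log2 fold change 1.59 ± 0.16, edgeR adjusted *p* = 2.00e-05). *Cxcl14*, a homeostatic chemokine with no agreed receptor, was at 13.5, 21.7 and 27.4 CPM against 74.6, 62.6 and 60.1 CPM (log2 fold change -1.66 ± 0.25, edgeR adjusted *p* = 2.54e-04). Infarct replicate 3 was highest and infarct replicate 1 lowest in *Cxcl14*, and the summed neuron markers followed the same order, at 428, 587 and 1136 CPM in infarct replicates 1 to 3. *Cx3cl1* did not follow it, being lowest in infarct replicate 2. All 5 neuron markers were lower in infarcts, with a median log2 fold change of -3.09. The part of neurons in *Cx3cl1* and *Cxcl14* was not tested.

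The sum over all 44 identifiers was 2253, 1555 and 1359 CPM in infarcts and 729, 743 and 812 CPM in cortex. The 3 infarcts lay above the 3 cortices, and a mean of 1722 ± 470 CPM (SD, n = 3) stood against 761 ± 44.5 CPM (SD, n = 3). *Cx3cl1* supplied between 64.9% and 72.2% of the sum in cortex and between 6.70% and 11.8% in infarcts. *Cxcl12* supplied between 44.6% and 55.8% in infarcts. Without these 2 genes the sum was 719 ± 144 CPM in infarcts and 86.7 ± 9.63 CPM in cortex (SD, n = 3). Per kilobase of merged exon length, the order in infarcts was *Ccl6* (156), *Cxcl12* (105), *Cxcl13* (57.8), then *Cx3cl1* and *Cxcl16*, which were level at 35.9 CPM per kilobase. In contralateral cortex it was *Cx3cl1* (133), *Cxcl14* (36.0), *Cxcl12* (18.5), *Ccl27a* (2.93) and *Ccl6* (1.35 CPM per kilobase).

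**Figure D4:**
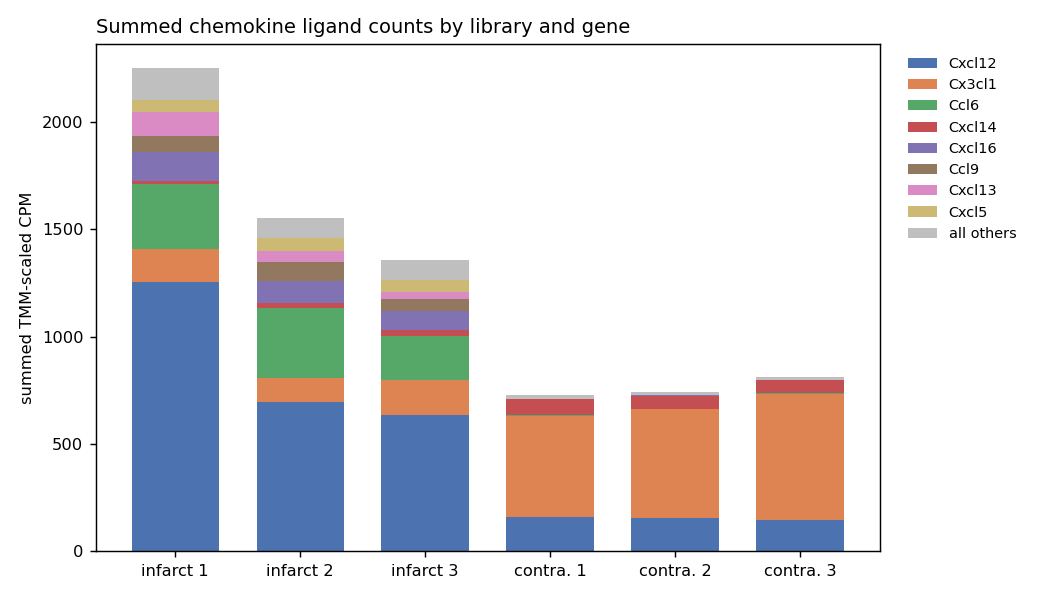
Summed TMM-scaled CPM of all chemokine ligand genes in each library, stacked by gene. Contralateral cortices (contra.) are mostly *Cx3cl1* and *Cxcl12* and total 729 to 812 CPM, and infarcts total 1359 to 2253 CPM with *Cxcl12*, *Ccl6*, *Cx3cl1* and *Cxcl16* as the thickest layers.

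Of 18 signalling receptor genes 15 could be tested, and all 15 were higher in infarcts (25.7% of all genes were). As with the ligands, 13 of the 15 reached the level needed for testing in infarcts alone and so had to be higher, and nothing is read from the count. *Ccr4*, *Ccr8* and *Ccr10* were not tested. The smallest log2 fold change was the 1.59 of *Cx3cr1*, and *Cxcr1*, with 36, 23 and 35 counts against none, was at least 11.04-fold higher (edgeR adjusted *p* = 1.13e-04). Atypical receptors, which bind chemokines without G protein signalling, were mixed. *Ackr1*, which carries chemokines across venules, was lower with 107, 82 and 182 counts against 767, 655 and 408 (log2 fold change -2.16 ± 0.25, edgeR adjusted *p* = 4.70e-05). Its overlap with other genes was not examined, so whether all these counts are *Ackr1* transcripts is not known. *Ccrl2* had a log2 fold change of 3.89 ± 0.37 (edgeR adjusted *p* = 1.23e-05), *Ackr2* was not called (-0.41 ± 0.38, edgeR adjusted *p* = 0.375) and *Ackr4* was not tested.

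All 7 enzymes listed as cutting or shedding chemokines were higher, beside 25.7% of all genes, and 2 of them, *Mmp8* and *Mmp12*, reached the level needed for testing in infarcts alone. *Mmp12*, the macrophage elastase, had 7852, 10290 and 8223 counts against 1, 3 and 11 (log2 fold change 10.84 ± 0.62, edgeR adjusted *p* = 3.41e-06). *Adam10* and *Adam17*, which release CX3CL1 and CXCL16 from the membrane, had log2 fold changes of 1.01 ± 0.15 (edgeR adjusted *p* = 2.43e-04) and 2.94 ± 0.17 (edgeR adjusted *p* = 6.14e-07). *Adam10* lay at the fold threshold and lost its call, which left 6 enzymes, by glmTreat against a fold change of 2 and without infarct replicate 1 (0.99), infarct replicate 2 (0.98), contralateral replicate 1 (0.97) or contralateral replicate 3 (0.99).

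Of 18 genes that carry chemokine receptor signals, 13 were higher, 3 were lower and 2 were not called, beside 25.7% of all genes higher and 20.9% lower. *Jak2*, at a log2 fold change of 1.04, lost its call without infarct replicate 1 (0.91) or contralateral replicate 1 (0.95). It also lost it by glmTreat against a fold change of 2 (edgeR adjusted *p* = 0.402). The higher ones included the leukocyte genes *Dock2* (log2 fold change 4.62 ± 0.24, edgeR adjusted *p* = 3.42e-07) and *Rac2* (5.41 ± 0.39, edgeR adjusted *p* = 4.11e-06). The lower ones were the G protein subunits *Gnb1* and *Gng2* and the receptor kinase *Grk2*, all widely expressed. By glmTreat, *Gnb1* (edgeR adjusted *p* = 0.0865) and *Grk2* (edgeR adjusted *p* = 0.189) lost their calls. *Grk2* lost it also with library totals in place of TMM (log2 fold change -0.92). Of 18 regulators that induce chemokines, 13 were higher, *Il4* was lower and 4 were not tested (*Ifng*, *Il17a*, *Lta* and *Ltb*). *Il4* had 108, 97 and 141 counts against 437, 390 and 269 (log2 fold change -1.52 ± 0.18, edgeR adjusted *p* = 5.31e-05). Its mean in cortex was 24.3 CPM, where T cell markers summed to at most 0.522 CPM. Overlap with other genes was examined for the ligand genes only, so whether these counts are *Il4* transcripts is not known. Of the 14 tested, *Irf7*, *Tnf* and *Il1b* reached the level needed for testing in infarcts alone, and the shares over all genes were again 25.7% and 20.9%. *Tnf* had 17, 27 and 17 counts against none, at least 7.15-fold higher (edgeR adjusted *p* = 2.83e-04), and *Irf7* had 286, 228 and 305 against 6, 2 and 2 (log2 fold change 6.47 ± 0.33, edgeR adjusted *p* = 3.35e-07). Of the platelet chemokines, *Pf4* had 12, 11 and 11 counts against 3, 3 and 2 (log2 fold change 2.18 ± 0.52, edgeR adjusted *p* = 4.27e-03), and *Ppbp*, with 10, 8 and 17 against none, was not tested.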

How the data were processed

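RNA was sequenced from 3 infarcts and 3 contralateral cortices. Per the study's methods and the submitters' processing notes, the authors prepared stranded, poly(A)-selected libraries, demultiplexed reads with bcl2fastq 2.19, trimmed them with Trimmomatic 0.32, aligned them to GRCm38 with STAR 2.5.2b and deposited raw counts per Ensembl gene from HTSeq. The annotation and strand setting of the counting are not given in the sources used here. Entries that name no gene held between 26.6% and 34.3% of the tallied reads and were left out.

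Identifiers were given symbols, biotypes and exons from GENCODE M21 (45229 matched and 849 did not). Counts were fitted in R 4.3.3 with edgeR 4.0.16 by filterByExpr, TMM and the robust quasi-likelihood test with region as the only term, on 15554 genes with Benjamini-Hochberg adjustment. Calls needed an adjusted *p* under 0.05 and a log2 fold change beyond 1. Each standard error is the fold change divided by the root of its *F*. Where every contralateral count was 0, the fold bound is the mean infarct CPM over the CPM of 3 counts per library. Where 1 to 3 contralateral counts were present in all, the ratio of pooled counts is given with an exact 95% interval, which covers counting error only. The same ratio is given for *Ccl17* and *Ccl19-ps1*, which had more contralateral counts but were not tested. Alternatives were DESeq2 1.42.0, voom of limma 3.58.1, other scalings, filters, thresholds and depths, a block on the replicate number, and leaving out each library. Tables and plots used Python 3.11.15, pandas 2.3.3, SciPy 1.17.1 and matplotlib 3.10.9.

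The members, gene lists and motifs were chosen with earlier results of these data known. Every ligand gene is named, in full where it was tested and by its counts where it was not. The labels do not say that libraries came from separate animals, so *p* values measure only the spread between these libraries. With 3 against 3, an exact permutation test cannot go below *p* = 0.1. Some genes of the lists are not reported here.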

Additional observations from a re-analysis of the deposited data

Results flagged for a closer look

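*Ccl19-ps1*, annotated as a pseudogene and so not among the protein-coding ligands, had 24, 12 and 6 counts in the infarcts and 3, 0 and 1 in the contralateral cortices. It was looked at because it lies outside the genes compared above and its level in infarcts, a mean of 1.07 CPM, was above that of the cortices. It had too few counts to be tested, and the ratio of pooled counts was 11.7, with a 95% exact counting interval of 4.23 to 44.8. Of its 75-base windows, 29.2% also occur in other annotated genes. Infarct replicate 1 was the highest and infarct replicate 3 the lowest, the same order as for *Ccl19*.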

How the results depend on the processing

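No ligand gene changed direction under any alternative, and 21 of the 24 tested kept their call or lack of one under all of them where they could be tested; *Ccl12* fell under the filter when counts were thinned to the smallest library total. The exceptions were *Cxcl9*, whose adjusted *p* was 0.0556 with no filter on low counts, *Ccl28*, not called by glmTreat against a fold change of 2 (edgeR adjusted *p* = 0.176) or without contralateral replicate 1, and *Ccl25*, called lower without contralateral replicate 3. Beside the 19 ligand genes called higher in the main fit, DESeq2 called 21, the fit with no filter 20 and the thinned counts 18. The genes added by DESeq2 and by the fit with no filter were ones under the filter of the main fit. The median of the 24 genes lay between 5.92 and 6.72 when 1 library was left out. Detection in contralateral cortex rose from 9 to 15 identifiers where more than 3 counts in at least 1 library were enough. With library totals in place of TMM, the median of all genes moved from 0.03 to 0.23 on the log2 scale and the summed contralateral CPM was 708. Signalling genes called lower numbered 5 with no fold threshold and 1 by glmTreat. Platelet chemokines called higher numbered 2 by DESeq2 and with no filter, and 1 to 2 when 1 library was left out, the second being *Ppbp*. The labels do not state a pairing, so the shared numbers were not taken as one. Deviations of same-numbered infarct and cortex libraries from their group means correlated at -0.161, 0.0851 and -0.0112. Those of differently numbered libraries ran from -0.201 to 0.161, so these values cannot show whether the libraries are paired. With the number as a block, 19 ligand genes were still called higher and 4 lower, and over all genes 3945 were called higher and 3222 lower against 3999 and 3256 without it. The cause of these differences was not tested. Depth limits the low ligands most, since 3 counts are worth up to 0.277 CPM.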
